A study of Rattus norvegicus with 22 samples.

Results

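The enzymes of cholesterol synthesis described here are 7 genes, Hmgcs1, Idi1, Fdps, Sqle, Lss, Cyp51 and Dhcr7, of 26875 genes and unnamed transcripts on the array. They were found as the non-control probes whose RefSeq accession pairs with one of these rat symbols, which gave 8 probes, with 1 probe for 6 genes and a pair for Fdps. RNA of male rat germ cells was measured on 22 Agilent one-colour arrays. Rats were gavaged 6 times a week over 4 weeks with saline or with 6 mg/kg of cyclophosphamide, a drug that alkylates DNA and is used against cancer. After dosing, germ cells were parted by size in the STA-PUT method, in which cells settle through a gradient under gravity. The 4 groups were pachytene spermatocytes (meiotic cells) of saline rats (n = 5) and of cyclophosphamide rats (n = 5), and round spermatids (haploid cells after meiosis) of saline rats (n = 6) and of cyclophosphamide rats (n = 6). The labels give neither the strain nor the age of the rats, and they do not say whether a rat number shared by the cell types names the same animal. The sedimentation enriches cells by size, so that a fraction can hold other cells.

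Cells build cholesterol from acetyl-CoA through mevalonate, 5-carbon isoprenoids, farnesyl diphosphate, squalene and lanosterol. In liver and most other tissues the genes of the route share control by SREBP2, a membrane-bound factor that is released for the nucleus when sterols run low. Germ cells are known for sterol intermediates that accumulate around meiosis, among them the product of Cyp51, and in spermatids Cyp51 is known to be driven by the testis form of CREM, a factor that binds cAMP response elements. Farnesyl diphosphate, the product of Fdps, also feeds protein prenylation, dolichol and ubiquinone.

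A level below is the log2 of a gene's signal minus that array's 75th percentile, so a level of 0 is the 75th percentile of the array. That percentile lay between 1069.5 and 2423.3 intensity units, between 65.3% and 76.4% of the probes exceeded background by the scanner's test, and 0 spots were saturated. Each of the 8 probes was well above background on all 22 arrays. The number of arrays limits the precision. The arrays lay on 4 slides, of which slides 1 and 2 held both cell types and slides 3 and 4 held pachytene spermatocytes alone. Of 10 pachytene markers 9 were higher in pachytene spermatocytes of saline rats and 1 (Ccna1) was higher in round spermatids, while 11 of 11 round spermatid markers were higher in round spermatids. Markers of cells outside the germ line also differed between the fractions, and their values stand beside the comparison of cell types.

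The first comparison asked how the transcripts of the enzymes differ between the cell types in rats given saline. In saline rats Fdps and Sqle were more than 2-fold higher in round spermatids than in pachytene spermatocytes, Cyp51 was 1.37-fold higher, Idi1 and Dhcr7 were 1.76-fold and 2.25-fold lower, and Hmgcs1 and Lss did not pass the test. Thus 3 of 7 enzymes were higher and 2 of 7 lower, at an adjusted p under 0.05 from limma with Benjamini-Hochberg adjustment over the 19401 genes tested. At that threshold 75.3% of all genes passed in this comparison, 38.3% higher and 37% lower. The enzymes' median difference was 0.14 on the log2 scale, beside 0.01 over all genes tested. Cell types differed so widely that the absolute difference of Fdps, the widest of the 7, exceeded that of 66.8% of genes.

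**Figure D1:**
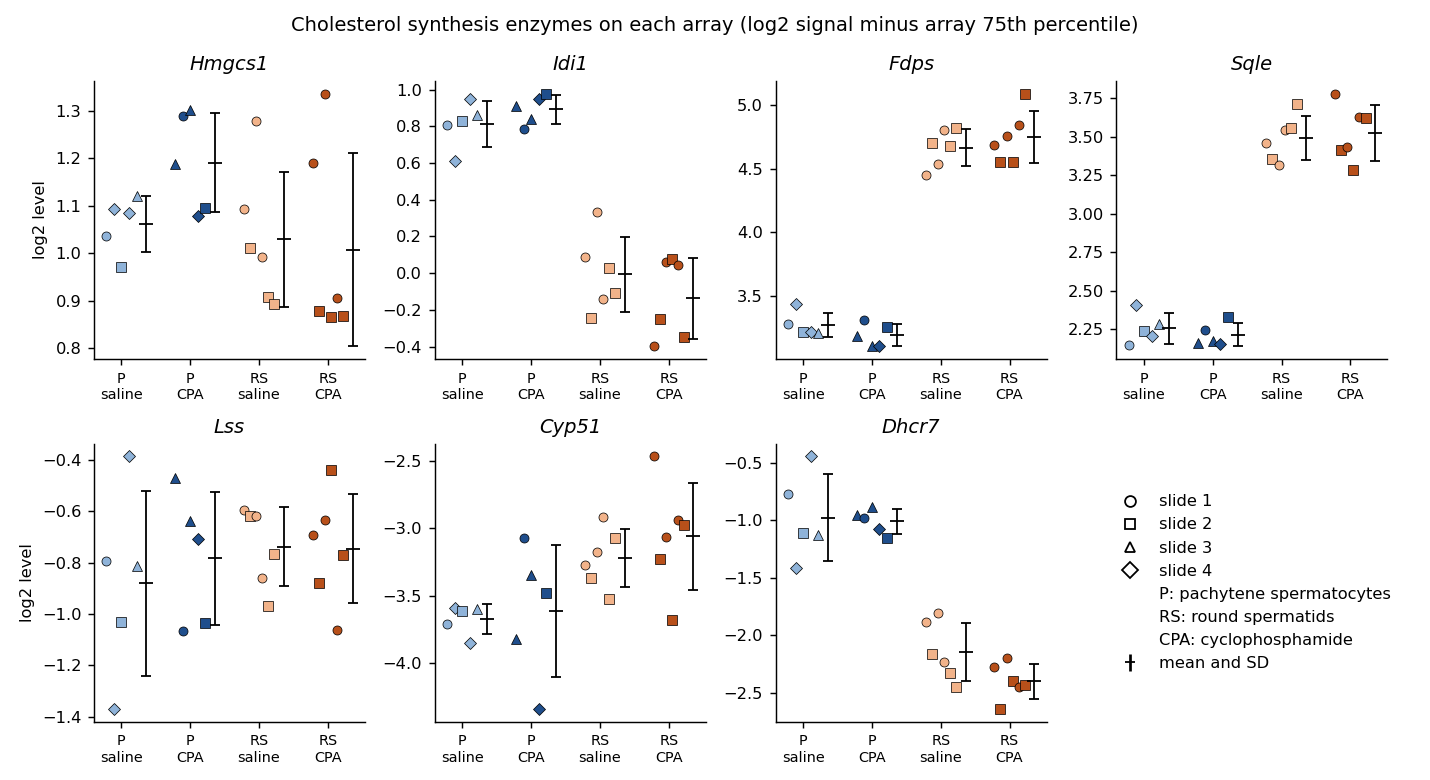
Log2 level of each enzyme on each array, relative to the array's 75th percentile, in pachytene spermatocytes (P) and round spermatids (RS) of saline and cyclophosphamide (CPA) rats. Each point is an array, its shape gives the slide, bars are mean and SD, and the vertical scale differs between panels. Fdps and Sqle sat higher in every round spermatid array than in any pachytene array, while Idi1 and Dhcr7 sat lower.

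The promoters of Fdps, Idi1 and Cyp51 are shown because Idi1 and Fdps catalyse neighbouring steps and lay on opposite sides of 0, and because Cyp51 is the member with a known spermatid factor. Each window runs from 250 bases before to 50 bases after the start of the gene in RefSeq's annotation of rat assembly GRCr8, where the table held a promoter for 6 of the 7 genes. That of Fdps is chr2:176804767-176805066 on the minus strand, that of Idi1 chr17:66547475-66547774 on the minus strand, and that of Cyp51 chr4:30991443-30991742 on the plus strand. Sequences are written 5′ to 3′ along the gene, with capitals on CCAAT boxes and on the letters TGACG, the core of the cAMP response element, on either strand.
Fdps: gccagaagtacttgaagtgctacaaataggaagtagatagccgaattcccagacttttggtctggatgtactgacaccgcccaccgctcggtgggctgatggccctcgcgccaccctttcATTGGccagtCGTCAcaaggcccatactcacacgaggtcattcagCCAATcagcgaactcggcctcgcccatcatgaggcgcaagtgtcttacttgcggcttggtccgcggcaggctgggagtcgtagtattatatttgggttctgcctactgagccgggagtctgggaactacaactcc
Idi1: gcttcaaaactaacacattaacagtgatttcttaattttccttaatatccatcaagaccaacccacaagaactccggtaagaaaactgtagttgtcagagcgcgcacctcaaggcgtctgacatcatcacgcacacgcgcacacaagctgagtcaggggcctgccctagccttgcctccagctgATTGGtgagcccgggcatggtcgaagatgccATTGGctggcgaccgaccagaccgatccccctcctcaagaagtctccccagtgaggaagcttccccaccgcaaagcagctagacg
Cyp51: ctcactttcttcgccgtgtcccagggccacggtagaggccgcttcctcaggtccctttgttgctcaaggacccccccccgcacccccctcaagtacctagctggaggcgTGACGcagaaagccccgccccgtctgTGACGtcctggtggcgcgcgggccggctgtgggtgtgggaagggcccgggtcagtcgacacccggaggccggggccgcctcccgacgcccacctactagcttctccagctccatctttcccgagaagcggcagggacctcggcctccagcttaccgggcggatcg

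A CCAAT box (CCAAT, or ATTGG on the other strand) was found in 4 of the 6 promoters, Hmgcs1, Idi1, Fdps and Lss, and in 37.5% of 33469 rat promoters of the same length. In Fdps the boxes began at -130 and -85 from the start, and in Idi1 at -66 and -35. The core TGACG was found, counting both strands, in 2 of 6 promoters, in Cyp51 beginning at -141 and -115 and in Fdps at -120, and in 21.2% of all promoters. The full palindromic element (TGACGTCA), which contains the core, was in 0 of 6 and in 1.83% of all. A GC box (GGGCGG or CCGCCC) was in 5 of 6 and in 33.1% of all. The letters TCACNCCAC, a core of the sterol regulatory element, were in 0 of 6 and in 1.12% of all. These matches describe letters within the windows alone.

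Fdps makes farnesyl diphosphate, the last intermediate that sterols share with the other isoprenoids. In pachytene spermatocytes of saline rats 13, 16, 25, 26 and 28 its log2 level was 3.27, 3.43, 3.21, 3.21 and 3.21. In round spermatids of saline rats it was 4.45 at the lowest, 4.69 at the median and 4.82 at the highest array. The groups did not overlap, as for 57.1% of genes in this comparison, and the lowest round spermatid array lay about 1 unit above the highest pachytene array. The difference was 1.39 ± 0.10 (SE), or 2.63-fold (95% interval 2.27 to 3.05; limma adjusted p = 4.81e-11). The second Fdps probe gave 1.31 ± 0.12, or 2.48-fold, in the same direction. The RefSeq gene table lists 5 Fdps pseudogenes, and whether their transcripts reach these probes was not tested.

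Sqle, squalene epoxidase, carries out the first oxygen-using step of the route. Its levels in the same 5 pachytene samples were 2.15, 2.41, 2.24, 2.20 and 2.28. In round spermatids of saline rats they ran from 3.32 to 3.71, with a median of 3.50. The highest pachytene array was again below the lowest round spermatid array. Sqle was higher in round spermatids by 1.24 ± 0.10, or 2.36-fold (2.04 to 2.72; limma adjusted p = 1.61e-10). It has a single probe.

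Cyp51, the lanosterol demethylase, had the dimmest signal of the 7, between 57.56 and 308.6 intensity units. Pachytene samples of saline rats read -3.71, -3.59, -3.62, -3.85 and -3.60 for rats 13, 16, 25, 26 and 28, and round spermatids ran from -3.52 to -2.92 with a median of -3.22. The groups lay apart by a narrow margin. The difference was 0.45 ± 0.20, or 1.37-fold (1.03 to 1.81), with a limma adjusted p of 0.0408. This call was lost under 15 of 21 alternatives, at differences of 0.24 to 0.59 and with adjusted p between 0.006 and 0.442 over all 21, and it fell to 0.24 with normexp background correction and to 0.24 ± 0.21 (adjusted p = 0.295) with slide as a block. The adjusted p rose to between 0.0501 and 0.0889 when any of pachytene rats 13, 16, 25, 26 and 28 or round spermatid rats 15, 17, 25 and 29 was left out, at differences of 0.39 to 0.47. The gene table lists 1 Cyp51 pseudogene, whose part in the signal was not tested.

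Idi1 interconverts the 5-carbon isoprenoids that Fdps joins. Its levels in pachytene spermatocytes of saline rats 13, 16, 25, 26 and 28 were 0.81, 0.61, 0.83, 0.95 and 0.86. In round spermatids of saline rats they ran from -0.24 through a median of -0.04 to 0.34. Every round spermatid array was below every pachytene array. Idi1 was lower in round spermatids by 0.82 ± 0.12 on the log2 scale, or 1.76-fold (1.49 to 2.08; limma adjusted p = 1.16e-06). Within slide 1 alone the value was -0.71 with an adjusted p of 0.0589. The gene table lists 1 Idi1 pseudogene, which was not examined further.

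Dhcr7 is the reductase of the final step in the route through 7-dehydrocholesterol. Its pachytene levels in saline rats 13, 16, 25, 26 and 28 spread from -0.77, -1.42, -1.11 and -0.45 to -1.13. The round spermatid levels of saline rats ran from -2.45 to -1.80, with a median of -2.20. The groups did not overlap although Dhcr7 had an SD of 0.37 among the pachytene samples, the widest of the 7 in that group. It was 2.25-fold lower in round spermatids (1.82 to 2.78; log2 difference -1.17 ± 0.15; limma adjusted p = 2.29e-07).

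Hmgcs1, the cytosolic synthase that makes HMG-CoA, read 1.06 ± 0.06 (SD, n = 5) in pachytene spermatocytes and 1.03 ± 0.14 (n = 6) in round spermatids of saline rats. The difference was -0.03 with a 95% interval of -0.24 to 0.18 (limma adjusted p = 0.79). Lss, which folds squalene epoxide into lanosterol, read -0.88 ± 0.36 and -0.74 ± 0.15 in the same groups. Its difference was 0.14, with an interval of -0.18 to 0.46 (limma adjusted p = 0.411). Both groups of each gene overlapped, and both intervals lie within a 2-fold change either way.

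The same comparison in cyclophosphamide rats takes its means from other arrays, but all groups shared each gene's estimate of the spread. There 5 of 7 enzymes passed, 3 higher and 2 lower, beside 79.2% of 19332 genes (38.8% higher, 40.4% lower), and they were the same 5 genes in the same directions. Fdps read 3.19, 3.31, 3.11, 3.11 and 3.25 in pachytene spermatocytes of rats 7, 15, 16-2011, 16-2012 and 29, and 4.55 at the lowest, 4.72 at the median and 5.09 at the highest round spermatid array. It was 2.94-fold higher in round spermatids (2.53 to 3.40; log2 difference 1.55 ± 0.10; limma adjusted p = 4.63e-12). Sqle read 2.16, 2.25, 2.17, 2.15 and 2.33 in those pachytene samples and 3.28 to 3.78 in round spermatids, a 2.49-fold difference (2.16 to 2.87). Both genes again parted the cell types with no overlap, as did 67.1% of genes tested.

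Idi1 read 0.91, 0.79, 0.84, 0.95 and 0.98 in pachytene spermatocytes of cyclophosphamide rats 7, 15, 16-2011, 16-2012 and 29, and -0.40 to 0.08 in round spermatids, where it was 2.04-fold lower (1.73 to 2.41). Dhcr7 read -0.95, -0.98, -0.88, -1.08 and -1.16 against -2.64 to -2.20, a 2.62-fold lower level in round spermatids (2.12 to 3.24). Neither gene overlapped between the cell types. Cyp51 read -3.82, -3.08, -3.35, -4.34 and -3.48 in pachytene samples, the widest scatter of the 7 genes there, against -3.68 to -2.47 in round spermatids, and its groups overlapped. Cyp51 was higher by 0.55 ± 0.20 (1.47-fold, 1.11 to 1.94; limma adjusted p = 0.0131), and without pachytene rat 16-2012, its lowest array, by 0.37 with an adjusted p of 0.064. The call was lost in 6 of 21 alternatives, at 0.19 within slide 2, 0.25 within slide 1 and 0.41 with slide as a block (adjusted p = 0.622, 0.454 and 0.075).

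Lss differed by 0.04 in cyclophosphamide rats (-0.28 to 0.35; limma adjusted p = 0.833). Hmgcs1 differed by -0.18 (-0.39 to 0.03; adjusted p = 0.104). Hmgcs1 would be called lower without round spermatid rat 16, at -0.25 (adjusted p = 0.0235), and under quantile normalization, at -0.29 (adjusted p = 0.012).

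**Figure D2:**
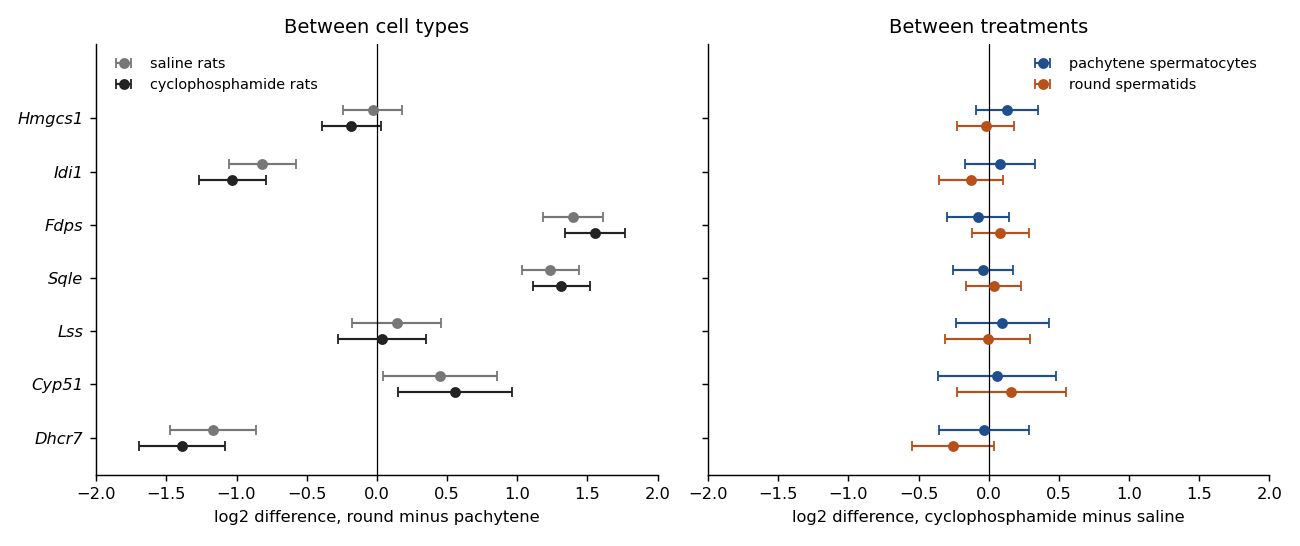
Log2 differences of the 7 enzymes with 95% intervals, on the left between cell types (round spermatids minus pachytene spermatocytes) in saline and in cyclophosphamide rats, on the right between treatments (cyclophosphamide minus saline) in each cell type. Both panels share the scale: cell types differed by up to 1.55 (Fdps), while every treatment interval lay between -0.55 and 0.55 and included 0.

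Markers of other testis cells moved with the cell types. In saline rats 7 of 7 tested Leydig markers, of 8 on the array, were lower in round spermatids. Of all genes 37% were lower and 38.3% higher. Their summed level, in units of the array's 75th percentile, was 5.75 to 11.49 in pachytene samples of saline rats, 5.24 to 9.92 in those of cyclophosphamide rats, and 1.86 to 4.22 and 1.75 to 3.07 in round spermatids. The Leydig receptor Lhcgr was not well above background on any array, and the Leydig factor Nr5a1 on none of the saline round spermatid arrays. Of 9 Sertoli markers 6 were lower and 1 higher in round spermatids, with sums of 19.4 to 29.1 and 18.3 to 31.5 in pachytene samples and 2.05 to 6.1 and 2.05 to 4.29 in round spermatids. All 10 tested macrophage markers, of 11 on the array, and all 6 tested peritubular myoid markers, of 7, were higher in round spermatids. A marker not above background in 1 cell type could be tested only through the other. For such markers, of any list, the direction was set in advance. Macrophage sums ran from 8.78 to 22.3 over both pachytene groups and from 53.4 to 89.1 over both round spermatid groups, and Ptprc, the pan-leukocyte antigen, was not above background on any pachytene array. Myoid sums ran from 1.9 to 3.53 and from 4.43 to 9.03, and Cnn1 was not above background on any pachytene array. The part of these cells in the enzymes' differences was not tested. In such fractions fewer cells of a type and less RNA per cell cannot be told apart. Which cells carry the marker transcripts was not tested either.

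**Figure D3:**
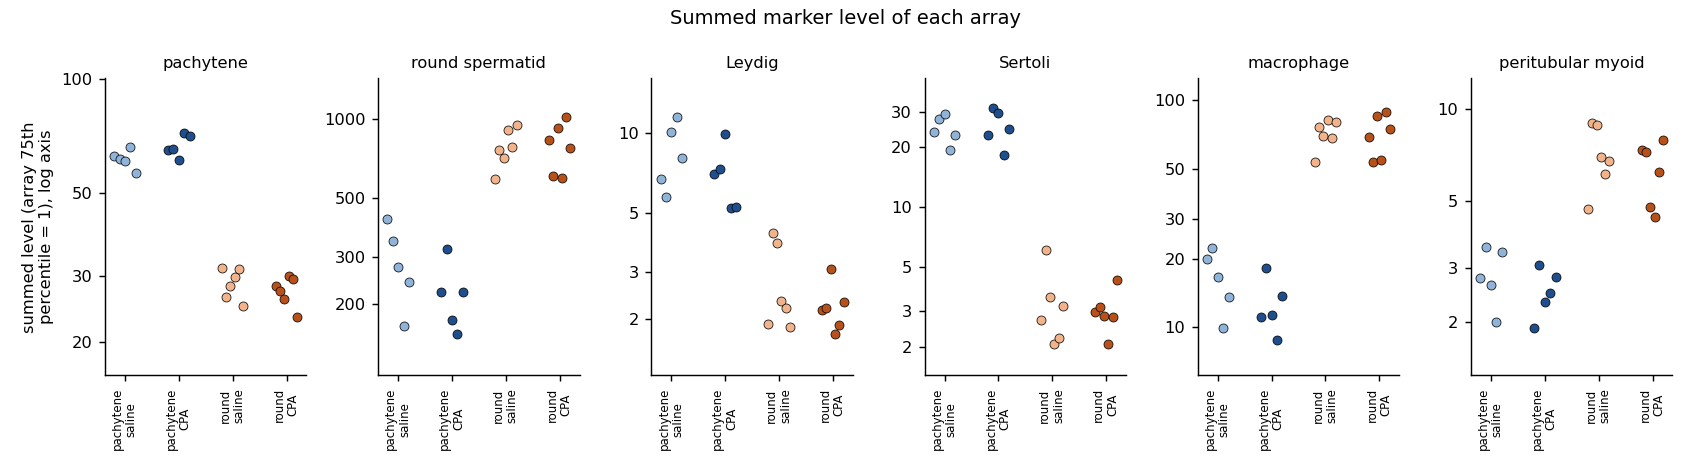
Summed level of each marker list on each array, in units of the array's 75th percentile, on a log axis with its own range in each panel. Points are arrays, in the 4 groups of cell type and treatment. Pachytene markers summed to 56.5 to 71.9 in pachytene samples and 23.3 to 31.6 in round spermatids, and round spermatid markers to 154 to 417 and 590 to 1010.

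Along the rest of the route, 13 of 14 listed enzymes were on the array and tested in saline rats. Of these 7 were lower in round spermatids, 1 was higher and 5 did not pass, where 37% of all genes were lower and 38.3% higher. Their median difference was -0.63, beside 0.01 over all genes. The widest were Hsd17b7, a sterol ketoreductase (2.67-fold lower, 2.22 to 3.21), Mvd, which decarboxylates the mevalonate diphosphate (2.55-fold lower, 2.1 to 3.1), Acat2, the thiolase at the entry of the route (2.24-fold lower, 1.85 to 2.71), and Mvk, mevalonate kinase (1.84-fold lower, 1.47 to 2.30). Each of these had an adjusted p of at most 2.57e-05 by limma, and the call of Mvk was lost within slide 2. In cyclophosphamide rats 7 of 12 tested were lower and 1 higher, beside 40.4% and 38.8% of all genes. Their median was -0.86, beside -0.02 for all genes. The widest there were Hsd17b7 (3.24-fold lower), Mvd (2.86-fold), Acat2 (2.31-fold) and Msmo1, the sterol methyl oxidase (2.27-fold).

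The following genes were picked after their values were seen, for their place beside the members. Fdft1, squalene synthase, stands between Fdps and Sqle in the route and was 1.55-fold lower in round spermatids of saline rats (1.31 to 1.83; log2 difference -0.63 ± 0.12; limma adjusted p = 3.72e-05), opposite to both its neighbours. The single higher enzyme of saline rats was Nsdhl, at 0.32 ± 0.14 (adjusted p = 0.0419). That call was lost without pachytene rat 16, 25 or 28 or round spermatid rat 16, 17 or 28, at 0.26 to 0.31, and under 8 other settings. Among these the difference was 0.04 with normexp background correction, 0.03 within slide 1 and 0.56 within slide 2 (adjusted p = 0.766, 0.931 and 0.104). The single higher enzyme of cyclophosphamide rats was another, Pmvk, at 0.30 ± 0.11 (adjusted p = 0.0131), whose call was lost on slides 1 and 2, alone or together.

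**Figure D4:**
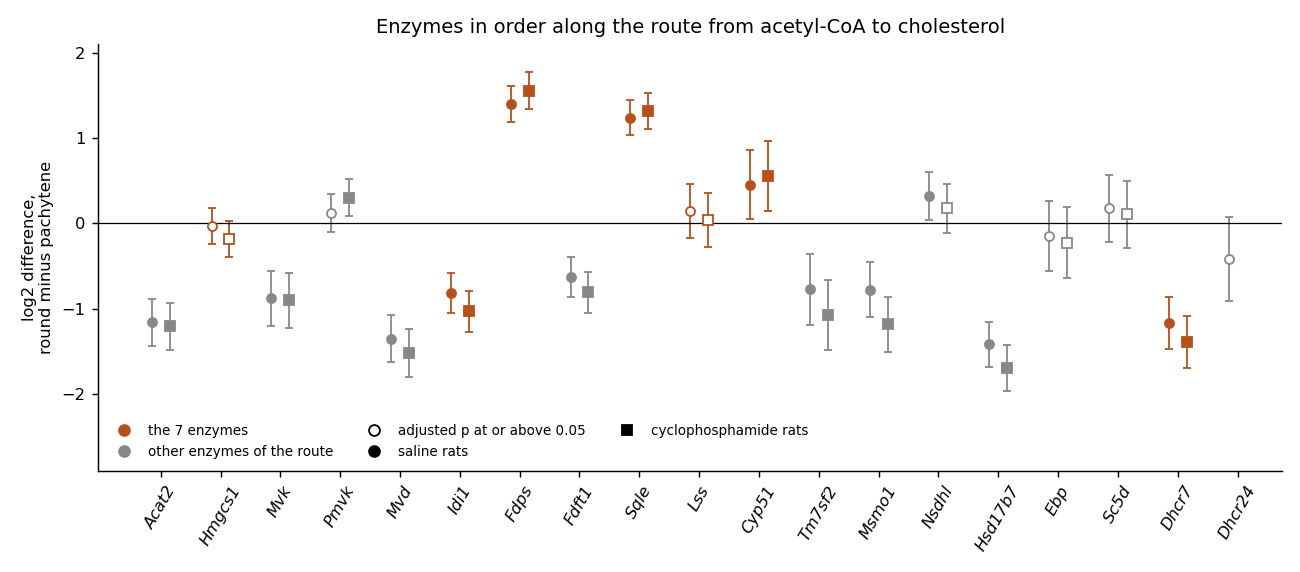
Log2 difference between round spermatids and pachytene spermatocytes, with 95% intervals, for enzymes of the route, placed in order from acetyl-CoA on the left to cholesterol on the right. Circles are saline rats, squares cyclophosphamide rats, orange marks the 7 enzymes, and open symbols did not pass at an adjusted p of 0.05. Fdps and Sqle stand above 0 on both sides of Fdft1, which lies at -0.63 and -0.81.

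Most genes of sterol sensing were lower in round spermatids. Of 5 tested, 4 were lower and 0 higher in saline rats, beside 37% and 38.3% of all genes. Their median was -1.12, beside 0.01 for all genes. Insig1, which retains the SREBP escort in the endoplasmic reticulum, was 3.6-fold lower (2.63 to 4.92), the escort Scap 2.61-fold (1.86 to 3.67), Mbtps1, the protease that makes the first cut, 2.18-fold (1.93 to 2.46), and Srebf2, which encodes SREBP2 itself, 1.88-fold (1.64 to 2.14). The largest limma adjusted p of these was 1.5e-05. In cyclophosphamide rats the same 4 genes were lower, where 40.4% of all genes were. Insig1 was lower by 4.68-fold, Mbtps1 by 2.40-fold, Srebf2 by 1.88-fold and Scap by 1.59-fold. The call of Scap was lost within slide 1 in saline rats and within slides 1 and 2 in cyclophosphamide rats. The protein that releases SREBP2 was not measured, and mRNA gives no measure of its cleavage.

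Genes of sterol uptake, storage and efflux divided. Of 14 tested in saline rats, 5 were higher and 7 lower in round spermatids, beside 38.3% and 37% of all genes. Their median was -0.39. Lipe, hormone-sensitive lipase, which also cleaves cholesteryl esters, was 7.05-fold higher (5 to 9.94). Mylip, a ligase that marks the LDL receptor for decay, counted among the 5 higher, but it exceeded background in only 2 of the 5 pachytene samples of saline rats and so has no firm fold there. Lipa, the lysosomal acid lipase, was 4.08-fold lower (3.17 to 5.24). In cyclophosphamide rats 5 were higher and 9 lower of 14, beside 38.8% and 40.4% of all genes. Lipe was 12-fold higher (8.49 to 16.9) and Lipa 5.35-fold lower (4.16 to 6.88). Mylip was not well above background on any of the 5 pachytene arrays of cyclophosphamide rats and was at least 3.73-fold higher in round spermatids, against the lowest signal well above background on each array, or the probe's own where higher.

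The comparison named by the study's design asked what chronic cyclophosphamide changed within each cell type. In pachytene spermatocytes 0 of 7 enzymes passed, beside 0 of 18450 genes (0%). The differences, cyclophosphamide minus saline, ran from -0.08 ± 0.11 (Fdps) to 0.13 ± 0.11 (Hmgcs1), and the smallest limma adjusted p among the enzymes was 0.791. At an unadjusted p under 0.05 there were 0 of 7 enzymes and 1343 genes (7.28%). The groups of all 7 overlapped, where 0.629% of genes did not overlap. All 7 intervals lay between -0.36 and 0.48 on the log2 scale, inside a 2-fold change either way, as did those of 93.4% of genes.

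Single enzymes illustrate how closely the groups lay. Hmgcs1 in pachytene spermatocytes read 1.04, 1.09, 0.97, 1.09 and 1.12 in saline rats 13, 16, 25, 26 and 28 and 1.19, 1.29, 1.30, 1.08 and 1.095 in cyclophosphamide rats 7, 15, 16-2011, 16-2012 and 29. The 3 highest arrays were of cyclophosphamide rats and the other two lay among the saline arrays. Lss read -0.79, -1.37, -1.03, -0.39 and -0.82 against -0.47, -1.07, -0.64, -0.71 and -1.03, a wide scatter in both groups. Within slides 1 to 4 Cyp51 differed by 0.63, 0.14, 0.01 and -0.62. Slides 1 and 2 each hold 1 pachytene array of each treatment, and slides 3 and 4 hold 3 pachytene arrays each. These values therefore give no usable test and do not show that slides differ. Round spermatid markers were below 0 in 11 of 11 genes in this comparison (median -0.49, 0 passed), as were 10 of 10 macrophage markers (median -0.26). At an unadjusted limma p under 0.05 there were 6 of 11 round spermatid and 2 of 10 macrophage markers, beside 7.28% of all genes. The summed round spermatid markers were 165 to 417 in saline and 154 to 323 in cyclophosphamide samples. Their part in the enzymes' values was not tested.

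In round spermatids 0 of 7 enzymes passed, beside 0 of 18843 genes (0%), and at an unadjusted p under 0.05 there were 0 of 7 enzymes and 3.32% of genes. Dhcr7 had the widest difference, -0.26 ± 0.14 (interval -0.55 to 0.03; limma adjusted p = 1). Its levels ran from -2.45 through a median of -2.20 to -1.80 in saline rats and from -2.64 through -2.42 to -2.20 in cyclophosphamide rats, so that the groups overlapped. Within slide 1 the Dhcr7 difference was -0.34 and within slide 2 it was -0.18. The other 6 enzymes differed by -0.13 (Idi1) to 0.16 (Cyp51). The groups of all 7 overlapped, where 0.191% of genes did not, and all 7 intervals lay inside a 2-fold change, as did those of 95.7% of genes.

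The treatment effect in round spermatids minus that in pachytene spermatocytes, which equals the change of the cell type difference with treatment, ran from -0.22 ± 0.21 (Dhcr7) to 0.16 ± 0.15 (Fdps). By limma 0 of 7 enzymes passed, with a smallest adjusted p of 0.694, beside 0 of 19643 genes (0%). At an unadjusted p under 0.05 there were 0 enzymes and 1502 genes (7.65%). The intervals of all 7 lay between -0.66 and 0.68.

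By order of group means, Fdps and Sqle stood highest in round spermatids of cyclophosphamide rats (4.75 and 3.53), then of saline rats (4.66 and 3.49), then in pachytene spermatocytes of saline rats (3.27 and 2.25) and of cyclophosphamide rats (3.19 and 2.21). Idi1 and Dhcr7 were highest in pachytene spermatocytes, Idi1 in those of cyclophosphamide rats (0.89) and Dhcr7 in those of saline rats (-0.98), and lowest in round spermatids of cyclophosphamide rats (-0.14 and -2.40). For these 4 genes the cell types differed in both treatments, while neighbours within a cell type did not pass. Cyp51 means stood at -3.67, -3.61, -3.22 and -3.06 in saline and cyclophosphamide pachytene spermatocytes and in saline and cyclophosphamide round spermatids. Hmgcs1 means lay between 1.01 and 1.19 and Lss means between -0.88 and -0.74, and no comparison between their groups passed.

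Likeness between genes was measured on what remained of each array once its group's mean was taken off. Over 22 arrays the 21 pairs of enzymes had a Pearson r of their deviations from -0.54 (Sqle and Lss) to 0.72 (Lss and Dhcr7), with a median of 0.00, given as a description of arrays that share slides. The same deviations also moved with those of the marker lists. Against the mean of the round spermatid markers r was -0.69 for Lss, 0.63 for Fdps, 0.56 for Cyp51, 0.45 for Sqle, -0.43 for Dhcr7, -0.39 for Idi1 and 0.04 for Hmgcs1. Against the pachytene markers it was -0.62 for Fdps, -0.60 for Sqle, 0.50 for Idi1 and 0.49 for Dhcr7. Over the 4 somatic lists it ran from -0.55 (Lss, peritubular myoid) to 0.52 (Hmgcs1, Leydig). The part of these cell types in the likeness between genes was not tested. Among 11212 named genes above background, those with the highest r to each enzyme by this measure were Lsm1 (0.76) and Bcat2 (0.76) for Hmgcs1, Tmem33 (0.86) and Pclaf (0.85) for Idi1, Gfer (0.88) and Chmp5 (0.87) for Fdps, and Ccdc91 (0.88) and Akip1 (0.85) for Sqle. For Lss they were Ccdc103 (0.89) and Cpsf2 (0.87), for Cyp51 Tmem18 (0.87) and Mapt (0.85), and for Dhcr7 Trmt6 (0.88). The 7 enzymes were left out of the genes searched, and the genes named are the extremes of 11212 values each.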

How the data were processed

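RNA of 22 samples in 4 groups was hybridised to one-colour arrays. The authors deposited scanner files whose intensity values, the processed signal, are background-subtracted but not scaled between arrays, per the file headers. The submitters' processing notes name Feature Extraction 11.5.1.1, the headers 10.7.3.1. The series' value table, also from the authors, is on the log2 scale, with steps not given in the sources used here. Its columns correlated at 0.9998 or more with values of the same array that were quantile normalized within a cell type and centred per probe, with column medians of -0.009751 to 0.007016. It served as an alternative for treatment.

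Control and outlier spots were left out and the spots of a probe averaged, for 30367 probes. Symbols came from accessions through RefSeq's GRCr8 gene table and named 59.3% of probes. The brightest probe stood for a gene. A gene was tested if well above background on all but at most 1 array of a compared group. Differences were fitted with limma 3.58.1 (lmFit, eBayes) in R 4.3.3 on all 22 arrays, with Benjamini-Hochberg adjustment over all genes tested. The scripts were tested on simulated data. Arrays of 1 group correlated at 0.9814 to 0.9914. P-values measure the spread between arrays, each labelled with a rat number. Rats 16-2011 and 16-2012 were counted as different rats, except in the replicate block, which dropped the year and so joined them. Deviations of same-numbered arrays within a treatment correlated from -0.223 to 0.379, so numbers were not used as pairs.

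The enzymes, gene lists and tests were chosen with earlier results of these data known. Beyond the 7 enzymes, up to 4 genes per list and comparison were named, those with the largest difference that passed, and exceptions are stated. A few genes that the rule or the lists hold are not reported here by name, though list counts and medians include them. Alternatives were normexp background (offset 50, on median signals, chosen after seeing the data since mean signals were not used here), quantile normalization, no filter, the mean of a gene's probes, the compared groups alone, slide as a block, single slides, slides 1 and 2 together (chosen after seeing the data), the value table, the replicate block and leaving out each array.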

Additional observations from a re-analysis of the deposited data

Results flagged for a closer look

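Of 32 combinations of probe and group, 1 held an array far from the others. Fdps read 3.43 in pachytene spermatocytes of saline rat 16, against 3.21 to 3.27 on the other 4 arrays of that group, a gap that was 0.712 of the group's range. Chance alone sets about 1 in 20 groups apart in this way. On the same array the summed round spermatid markers were 344.9, within the 164.9 to 416.7 of the group. The summed macrophage markers (22.3) and peritubular myoid markers (3.53) were the group's highest, and the Leydig markers (5.75) its lowest. The pachytene (61.5) and Sertoli (27.7) sums were at neither end. The second Fdps probe (2.82), Sqle (2.41) and Cyp51 (-3.59) were also at the group's highest there. Idi1 (0.61), Lss (-1.37) and Dhcr7 (-1.42) were at its lowest, while Hmgcs1 (1.09) was at neither end. Whether other cells bear on these values was not tested. Without this array the difference of Fdps between the cell types of saline rats was 1.43 (limma adjusted p = 1.11e-10), against 1.39 with it.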

How the results depend on the processing

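Of 812 values of the enzymes under alternatives, 788 stayed on the same side of the threshold, 22 lost a call and 2 gained one. No called value changed sign, while 50 values that did not pass did. The 22 were Cyp51 in saline rats (15) and cyclophosphamide rats (6), and Idi1 in saline rats within slide 1. Fdps, Sqle and Dhcr7 kept their calls between cell types under all 21 alternatives in each treatment, Fdps at 1.16 (quantile normalization) to 1.52 in saline rats. Within slide 1 the pachytene spermatocytes of saline rats are 1 array. The differences between cell types of saline rats there ran from -1.20 (Dhcr7) to 1.32 (Fdps). Among named genes of the lists, 1050 of 1092 values were unchanged in call, 34 lost it and 7 gained it. Nus1 in saline rats reversed, from 0.43 to -0.74, with the mean of all its probes. Quantile normalization moved the median of all genes by -0.085 and -0.07 between cell types.

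For treatment in pachytene spermatocytes, 7, 34, 2 and 18 genes passed within slides 1 to 4, none of them an enzyme, and 0 to 1 with an array left out. Slides 1 and 2 each hold 1 pachytene array of each treatment, so the spread there is that of the round spermatid arrays. Slides 3 and 4 hold 3 pachytene arrays each, with 1 residual degree of freedom per slide. These 4 counts therefore say little about treatment. In round spermatids 1 and 4 passed within slides 1 and 2. For the difference of effects 21 passed within slide 2 and 0 to 1 with an array left out. With the rat number within a treatment as a replicate block, 14619 genes passed between cell types of saline rats and 15318 in cyclophosphamide rats. For the difference of effects 0 passed. For treatment in round spermatids 0 passed with the bare number as a block. That block joined different animals that share a number across treatments, so it is no paired test. The replicate block changed no call of an enzyme. No paired analysis of treatment was possible in either cell type, since each rat was given either saline or cyclophosphamide. Single slides hold fewer arrays, and why calls differed between settings was not tested.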

Other observations

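Most tested enzymes of the branches that leave the route at farnesyl diphosphate were lower in round spermatids. Of 8 tested isoprenoid enzymes 6 were lower and 0 higher in saline rats, beside 37% and 38.3% of all genes. Their median was -0.80, beside 0.01 over all genes. Pdss2, a subunit of the synthase that makes the ubiquinone side chain, was 4.65-fold lower (95% interval 3.48 to 6.20), Coq2, which attaches that chain, 4.4-fold (3.24 to 5.99), Pggt1b, a subunit of the geranylgeranyl transferase, 2.20-fold (1.69 to 2.85), and Ggps1, which lengthens farnesyl to geranylgeranyl diphosphate, 2-fold (1.69 to 2.37). In cyclophosphamide rats 6 of 8 were lower as well, beside 40.4% of all genes, at a median of -1.08. There Coq2 was 6.06-fold, Pdss2 4.93-fold, Pggt1b 3.03-fold and Ggps1 2.52-fold lower. The 2 that did not pass, named after their values were seen, were Dhdds and Nus1, the subunits of the enzyme that builds the dolichol chain. Dhdds differed by -0.05 and -0.19 on the log2 scale in saline and cyclophosphamide rats (limma adjusted p = 0.697 and 0.112). Nus1 differed by 0.43 and -0.16 (limma adjusted p = 0.0815 and 0.515), and its probes disagreed, since the mean over them gave -0.74 and -1.22, which passed.

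The electron donors that serve the oxygen-using steps divided, 3 of 4 lower and 1 higher in round spermatids of both treatments. Of all genes 37% were lower in saline rats and 40.4% in cyclophosphamide rats. In saline rats cytochrome b5 (Cyb5a) was 3.52-fold lower (2.79 to 4.46), its mitochondrial form Cyb5b 2.31-fold lower (1.82 to 2.93), and Por, which passes electrons to Cyp51 and to Sqle, 1.30-fold lower (1.11 to 1.51). Cyb5r3, the reductase of cytochrome b5, was 1.37-fold higher (1.1 to 1.7). In cyclophosphamide rats Cyb5a was 4.46-fold, Cyb5b 2.74-fold and Por 1.48-fold lower, and Cyb5r3 1.37-fold higher. The calls of Por and Cyb5r3 were each lost under some of the slide settings.

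Crem, whose testis form binds cAMP response elements, was 2.16-fold higher in round spermatids of saline rats (1.84 to 2.54), and its coactivator Fhl5 6.53-fold higher (5 to 8.54). In cyclophosphamide rats they were 2.31-fold and 8.71-fold higher. Which forms of Crem the probe reads was not tested.

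None of the genes in the sterol and CREM lists passed for treatment. Those with an unadjusted p under 0.05 were Lipe in pachytene spermatocytes, at -0.70 ± 0.25 on the log2 scale (limma adjusted p = 0.683), and Pmvk (0.27), Fntb (-0.51) and Scap (0.50) in round spermatids, each at an adjusted p of 1.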
